A study of Rattus norvegicus with 8 samples.

Results

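The 38 genes described here encode the enzymes that make, recycle and use glutathione, the thioredoxin and peroxiredoxin system, the superoxide dismutases, and the regulators NRF2 and KEAP1 with some of their targets. They were chosen by name, with earlier results of these data known. Of the 38, 35 had a probe set assigned to a single gene symbol and 34 were bright enough to be tested, among 13796 tested genes of 17245 measured. Ggt1 and Txnrd2 had no such probe set, the probe set of Gstt1 is shared with Gstt3, and the cystine transporter Slc7a11 lay below the filter on dim genes. Slc7a11 was at log2 2.41 to 2.63 in the 8 samples, under the filter at a log2 mean of 3.63.

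Whole kidneys were taken from HSRA rats aged 4 weeks, a model of unilateral renal agenesis bred from a heterogeneous stock. In HSRA-S, 4 animals had been born with a single kidney, and in the control group HSRA-C 4 animals of the same model had a kidney pair. Both groups therefore carry the HSRA background, and the cause of the missing kidney is not given in the labels. The labels call the samples independent biological replicates but give neither sex nor litter. Each sample was hybridised to its own Affymetrix Rat Gene 1.1 ST array, and the deposited values are RMA intensities, used here as log2. The comparison asks how these genes are expressed in a kidney that developed alone.

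Glutathione is built from glutamate, cysteine and glycine by glutamate-cysteine ligase (Gclc and Gclm) and glutathione synthetase (Gss). Peroxidases oxidise it while removing peroxides, transferases couple it to electrophiles, and glutathione reductase (Gsr) restores it with NADPH. The thioredoxin system works in parallel through thioredoxin reductase, thioredoxin and the peroxiredoxins. Many of these genes are targets of NRF2 (Nfe2l2), a transcription factor that KEAP1 holds for degradation and that binds antioxidant response elements when released. In the kidney the proximal tubule is rich in glutathione and its enzymes, and it secretes the plasma peroxidase Gpx3.

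Matches to the antioxidant response element near the starts of these genes are shown because NRF2 acts through it. RefSeq promoter windows of assembly GRCr8, running from 250 bases before to 50 after a transcript start, were available for 33 of the 38 genes. The element was searched on both strands as TGACNNNGC, which was found in 8 of the 33 windows (24.2%) and in 12.1% of 33469 windows of all genes. A looser form, TGANNNNGC, was in 17 of the 33 (51.5%) against 40.5% of all windows. The AP-1 element TGANTCA, which can overlap both, was in 5 (15.2%) against 7.33%. These are matches of letters, not known sites, and the 8 strict matches follow with the match in capitals, each read 5′ to 3′ on the strand where it reads TGACNNNGC.
Gclm, chr2:213031952-213031982, minus strand: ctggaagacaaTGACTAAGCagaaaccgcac
Gpx2, chr6:101230027-101230057, plus strand: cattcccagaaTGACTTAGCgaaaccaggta
Gstp1, chr1:210769747-210769777, minus strand: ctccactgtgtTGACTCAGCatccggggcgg
Prdx1, chr5:135383760-135383790, minus strand: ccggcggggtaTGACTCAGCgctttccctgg
Prdx5, chr1:213532009-213532039, plus strand: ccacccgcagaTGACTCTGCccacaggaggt
Sod2, chr1:50050184-50050214, plus strand: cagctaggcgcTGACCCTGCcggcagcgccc
Nfe2l2, chr3:81028953-81028972, minus strand: cgactagccatTGACGCCGC
Prdx4, chrX:43878741-43878760, minus strand: TGACCAAGCgagcacgaaaa
The match in Gpx2 began at -13 from the start, that in Gstp1 at -61, that in Sod2 at -35, that in Prdx5 at -1, that in Prdx1 at -135 and that in Gclm at -172, while those in Nfe2l2 and Prdx4 lay after it.

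At an unadjusted p under 0.05, 5 of the 34 tested genes had higher levels in the solitary kidney, beside 7.36% of all tested genes. They were thioredoxin reductase Txnrd1, glutathione reductase Gsr, sulfiredoxin Srxn1, the peroxidase Gpx2 and the microsomal transferase Mgst3, at 1.16-fold to 1.49-fold. When HSRA-C replicates 3 and 4 were left out, 2 of them (Txnrd1 and Gpx2) kept an unadjusted p under 0.05, beside 2.7% of all genes. The enzymes of glutathione synthesis, Gclc, Gclm and Gss, had lower group means in the solitary kidney, by 1.06-fold to 1.18-fold. NRF2 and KEAP1 themselves differed by less than 0.02 on the log2 scale. None of these differences passed the test over all genes.

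Of the 34 genes, 22 had a higher and 12 a lower mean in HSRA-S, where 55.5% of all tested genes were on the higher side. With limma, 0 of them and 0 of all 13796 genes (0%) had an adjusted p below 0.05. Counted by the unadjusted p with the same threshold, 5 were higher and 0 lower. Over all tested genes the shares were 7.36% higher and 4.69% lower, so 5 of 34 stands beside a background that itself leaned to the higher side. The unmoderated test per gene gave the same 5 genes, and 0 after adjustment. Groups did not overlap for 4 of the 34, all higher in HSRA-S, where 6.29% of all genes did not overlap, 4.12% on the higher and 2.17% on the lower side. The median log2 difference of the 34 was 0.062, against 0.015 over all genes tested.

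**Figure D1:**
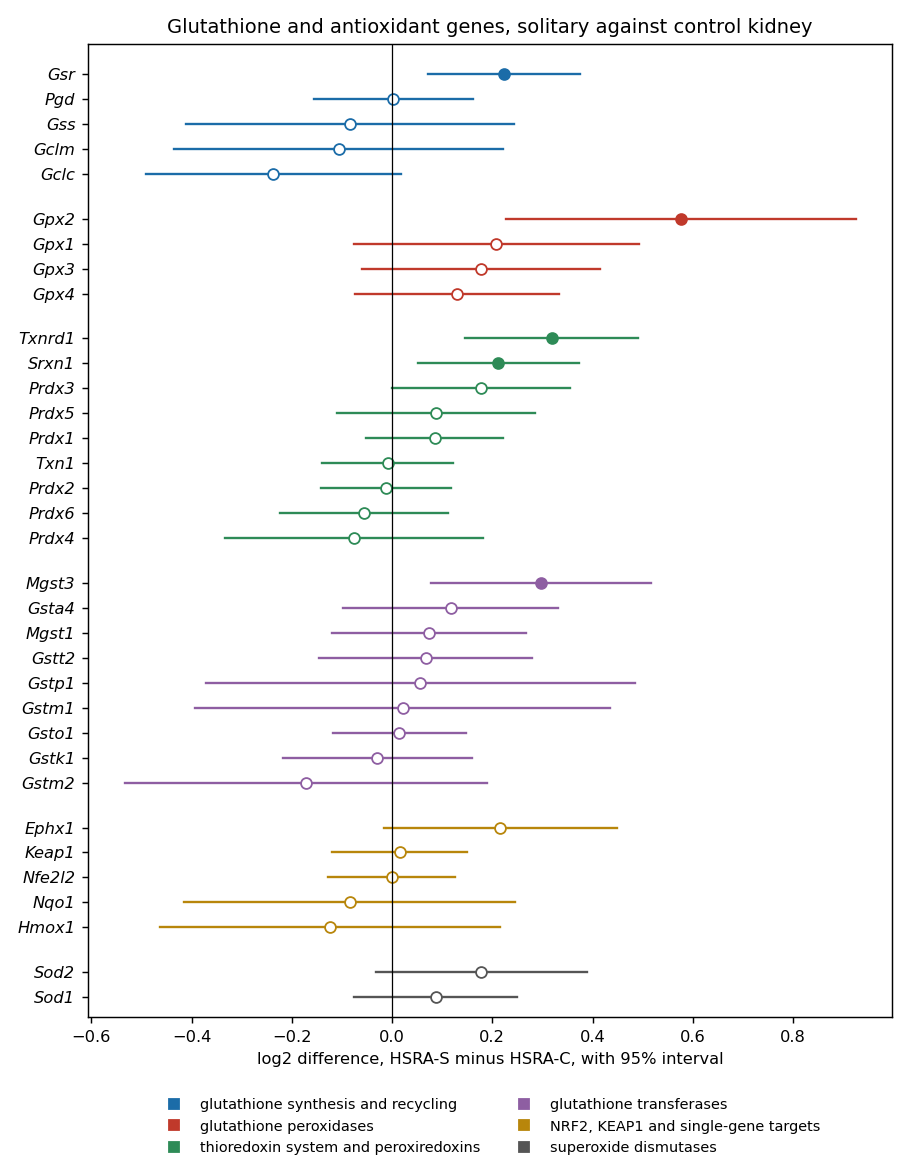
Log2 difference (HSRA-S minus HSRA-C, 4 samples each) of the 34 tested genes on the horizontal axis, with 95% intervals of the limma fit, grouped by role. Filled points have an unadjusted p under 0.05; these are Gsr, Gpx2, Txnrd1, Srxn1 and Mgst3, all to the right of 0, while Gclc, Gclm and Gss lie to the left.

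HSRA-C replicates 3 and 4 stood apart from the other samples in the mean levels of markers of nephron segments, which touches several of the values below. The mean log2 level of 18 measured proximal tubule markers was 9.96 and 9.95 in these samples, and 10.2 to 10.6 in the other 6. That of 15 collecting duct markers was 8.44 and 8.55 in them and 7.57 to 8.14 in the others. That of 6 stromal markers was 8.04 and 8.09 in them and 7.43 to 7.76 in the others. By these means HSRA-S replicate 4 lay at the other end, with 10.57 for proximal tubule and 7.57 for collecting duct. In HSRA-S 15 of 18 proximal tubule markers had higher and 14 of 15 collecting duct markers lower group means. Of all genes 55.5% were higher. Slc2a2 was 7.61 to 8.57 in HSRA-S against 7.44 and 7.58 in HSRA-C replicates 1 and 2. The proximal tubule markers Slc34a3, Slc6a19, Slc7a7 and Slc7a8 also had every HSRA-S sample above these 2 controls. Of the 18, only Slc3a1 lay wholly below them, at 11.16 to 11.35 against 11.46 and 11.55. With these 2 controls alone, 8.45% of all genes were higher and 5.47% lower without overlap. Leaving out HSRA-C replicates 3 and 4 therefore does not remove every marker difference. In whole tissue, fewer cells of a type and less RNA per cell cannot be told apart. Values are given beside the full fit in a fit that omits HSRA-C replicates 3 and 4, and in one with the proximal tubule mean minus the collecting duct mean as a covariate. This covariate was 2.16 to 3.00 in HSRA-S and 1.40 to 2.30 in HSRA-C. HSRA-S replicate 4 was highest at 3.00, with the next sample at 2.30. HSRA-C replicates 3 and 4 were lowest at 1.52 and 1.40, with the next at 2.15. The fit that omits these 2 controls keeps HSRA-S replicate 4, so it removes outlying samples from the control group only. Nothing in the labels sets the 2 controls apart. The covariate thus differs in part with the group, and the share of each in a difference cannot be fully told apart. Without the 2 samples 2 of the 34 genes were higher at an unadjusted p under 0.05 (Txnrd1 and Gpx2) and 3 lower (Gclc, Gclm and Gss), against 2.7% and 2.17% of all genes. In that subset 5 genes were higher without overlap (Txnrd1, Gsr, Srxn1, Gpx2 and Mgst3), where 8.45% of all genes were. With the covariate 5 were higher (Txnrd1, Gsr, Srxn1, Gpx2 and Gstp1) and 0 lower, against 5.1% and 2.58%. The number at an adjusted p under 0.05 was 0 in both (0% of all genes). Without the 2 samples the median log2 difference of the 34 was 0.0144, against 0.0139 over all genes, with 20 higher and 14 lower. With the covariate the median was 0.00667 against 0.0241, with 17 higher and 17 lower. Of all genes 55.3% and 58.5% were higher in these fits.

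Among other tissues the kidney samples could hold, leukocyte, erythroid and cell division markers had higher means in HSRA-S, and their part in the results was not tested. The mean of 9 leukocyte markers was 5.10 to 5.58 in HSRA-S and 4.91 to 5.23 in HSRA-C, with 8 of 8 tested markers on the higher side and 1 of the 9 below the filter. For 5 erythroid markers it was 6.98 to 7.60 and 6.47 to 7.64, with 5 of 5 on the higher side. For 7 cell division markers it was 6.0 to 6.59 and 5.60 to 6.41, with 7 of 7 on the higher side. Of all genes 55.5% were on that side. It held 0 of 5 podocyte, 1 of 6 endothelial and 1 of 6 stromal markers. For adipose markers it was 5 of 6, and for thick limb and distal tubule markers 5 of 9. At an unadjusted p under 0.05, 4 of the 6 stromal markers were lower, beside 4.69% of all genes. Of 7 adrenal markers 3 lay below the filter on dim genes, and their mean was 3.91 to 4.05 in HSRA-S and 3.92 to 4.10 in HSRA-C.

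Txnrd1 had the smallest p of the group. It is the cytosolic selenoenzyme that passes electrons from NADPH to thioredoxin. Its log2 level (probe set 10901413) was 7.09, 7.07, 6.90 and 6.87 in HSRA-S replicates 1 to 4, and 6.72, 6.77, 6.60 and 6.56 in HSRA-C replicates 1 to 4. Every solitary kidney was above every control. The log2 difference was 0.32 (95% interval 0.15 to 0.49), or 1.25-fold, with an adjusted p of 0.331. It was 0.24 without HSRA-C replicates 3 and 4 and 0.30 with the covariate.

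Gsr, the NADPH-dependent reductase of oxidised glutathione, was also lowest in HSRA-C replicates 3 and 4. Its level was 9.38, 9.25, 9.28 and 9.20 in HSRA-S and 9.13, 9.14, 8.97 and 8.98 in HSRA-C, again without overlap. The log2 difference was 0.22 (SE 0.068, adjusted p = 0.331). Without those 2 samples the difference was 0.14 (unadjusted p = 0.106). With the covariate it was 0.19.

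Srxn1, which reduces overoxidised peroxiredoxins, was a dim gene. It measured 5.36, 5.36, 5.25 and 5.20 in HSRA-S and 5.20, 5.03, 5.13 and 4.96 in HSRA-C. The lowest solitary kidney was just above the highest control, both 5.20 after rounding. The log2 difference was 0.21 (SE 0.072, adjusted p = 0.349), and 0.18 without HSRA-C replicates 3 and 4 (unadjusted p = 0.0789). The window at its start held no strict response element but 3 looser matches, shown in capitals in the 220 bases from 200 before to 20 after the start (chr3:161064612-161064831, plus strand, GRCr8), of which the last overlaps an AP-1 element.
Srxn1: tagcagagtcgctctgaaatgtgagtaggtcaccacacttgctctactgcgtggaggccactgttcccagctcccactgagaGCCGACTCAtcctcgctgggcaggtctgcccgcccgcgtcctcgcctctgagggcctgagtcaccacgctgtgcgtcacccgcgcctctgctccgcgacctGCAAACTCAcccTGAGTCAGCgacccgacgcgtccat

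By Pearson's r over the 8 samples, the genes most like Txnrd1 among all tested were Supv3l1 (0.990), Slc25a45 (0.984), Cul2 (0.980), Pigr (0.977) and Cul4a (0.976). Among the antioxidant genes they were Gsr (0.946), Srxn1 (0.871), Sod2 (0.822), Prdx3 (0.764) and Ephx1 (0.695). These values rank genes by likeness and include the difference between the groups and HSRA-C replicates 3 and 4.

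For thioredoxin itself and the 6 peroxiredoxins the difference was smaller than for the reductase, and none had an unadjusted p under 0.05. Txn1, the cytosolic thioredoxin, ran from 11.98 to 12.12 in HSRA-S and from 12.01 to 12.11 in HSRA-C, a difference of -0.01 (95% interval -0.14 to 0.12). Prdx2, a cytosolic peroxiredoxin abundant in red cells, differed by -0.01 (-0.14 to 0.12). Both intervals leave out the 0.32 measured for Txnrd1, but the difference between genes was not tested. Prdx1, its cytosolic relative, was at 0.09 with a second probe set at 0.06, the peroxisomal and mitochondrial Prdx5 was at 0.09, and the peroxiredoxin Prdx6 was at -0.06. Prdx4, the form of the secretory pathway, was at -0.08 with 1 low value of 4.63 in HSRA-S replicate 4 against 5.02 to 5.19 in the other samples.

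Prdx3, the peroxiredoxin of the mitochondrial matrix, stood nearest to the 5 genes. It was 9.57, 9.59, 9.54 and 9.67 in HSRA-S and 9.54, 9.54, 9.33 and 9.25 in HSRA-C. The low values were those of HSRA-C replicates 3 and 4, and the difference of 0.18 (adjusted p = 0.415) became 0.05 without them and 0.04 with the covariate. The mitochondrial superoxide dismutase Sod2 had the same pattern, with 9.40, 9.28, 9.19 and 9.28 in HSRA-S and 9.24, 9.28, 9.03 and 8.88 in HSRA-C. Its difference was 0.18, and 0.03 without those samples. Sod1, the cytosolic dismutase, was at 0.09, and at -0.01 without them.

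All 4 glutathione peroxidases had higher means in the solitary kidney, and Gpx2 had the widest difference of the 34 genes. Gpx2 is best known as the peroxidase of the gut epithelium. Its level was 6.61, 6.46, 6.06 and 6.80 in HSRA-S and 5.74, 5.70, 6.09 and 6.09 in HSRA-C. HSRA-S replicate 3 lay just below the 2 highest controls, so the groups overlapped. The log2 difference was 0.58 (95% interval 0.23 to 0.93), or 1.49-fold, with an adjusted p of 0.331. In contrast to the genes above, HSRA-C replicates 3 and 4 were the higher controls for Gpx2, and the difference was 0.76 without them and 0.58 with the covariate. The strict response element in its window lies close to the start and reads in reverse on the strand of the gene (chr6:101230014-101230233, minus strand, GRCr8, from 200 bases before to 20 after the start, match in capitals).
Gpx2: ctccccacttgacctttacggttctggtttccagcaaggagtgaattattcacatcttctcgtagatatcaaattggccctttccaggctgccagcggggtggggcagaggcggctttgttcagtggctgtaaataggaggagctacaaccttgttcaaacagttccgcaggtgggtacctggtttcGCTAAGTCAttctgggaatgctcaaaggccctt

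Gpx1, the ubiquitous cytosolic peroxidase, shared the order of the solitary kidneys with Gpx2. It was 9.52, 9.43, 9.14 and 9.84 in HSRA-S and 9.27, 9.15, 9.36 and 9.30 in HSRA-C, so HSRA-S replicate 4 was the highest and replicate 3 the lowest of its group for both genes. The Gpx1 difference was 0.21 (95% interval -0.08 to 0.49), and 0.09 without HSRA-S replicate 4. Gpx3, the secreted peroxidase, ran from 11.58 to 11.92 in HSRA-S and from 11.34 to 11.74 in HSRA-C. The difference was 0.18 in the full fit, 0.02 when HSRA-C replicates 3 and 4 were omitted and -0.03 with the covariate. Gpx4, which reduces lipid hydroperoxides in membranes, was at 0.13, and at 0.01 and -0.03 in those fits.

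The 3 enzymes of glutathione synthesis shared an order of samples that was not that of the reductases. Gclc, the catalytic subunit of the first step, was 11.33, 11.43, 11.70 and 11.26 in HSRA-S and 11.75, 11.88, 11.55 and 11.49 in HSRA-C. Gclm, its modifier subunit, was 10.57, 10.63, 10.77 and 10.24 in HSRA-S and 10.82, 10.96, 10.47 and 10.38 in HSRA-C. Gss, the second enzyme, was 8.82, 9.02, 9.18 and 8.77 in HSRA-S and 9.20, 9.35, 8.88 and 8.69 in HSRA-C. For all 3 genes HSRA-C replicate 2 was the highest sample, HSRA-C replicate 1 the next, and HSRA-S replicate 3 the highest of the solitary kidneys. HSRA-S replicate 4 was the lowest solitary kidney for all 3.

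With all samples, the log2 differences were -0.24 for Gclc (95% interval -0.49 to 0.02), -0.11 for Gclm (-0.44 to 0.22) and -0.08 for Gss (-0.41 to 0.24). Their adjusted p-values were 0.435, 0.810 and 0.853. The difference widened without HSRA-C replicates 3 and 4, to -0.38 for Gclc, -0.34 for Gclm and -0.33 for Gss, with unadjusted p-values of 0.0162, 0.0405 and 0.0301. The lowest adjusted p of the 34 genes was then 0.977. Other omissions narrowed it: Gclm was at -0.0033 without HSRA-S replicate 4, -0.0050 without HSRA-C replicate 2 and -0.0051 with array weights, and Gss was at 0.024 without HSRA-C replicate 2. With HSRA-C replicates 3 and 4 omitted 2 controls remain, and the 2 controls lay above all 4 solitary kidneys for these 3 genes, for Gsto1 and for Prdx6, where 5.47% of all genes were lower without overlap. With the covariate the differences of Gclc, Gclm and Gss were -0.27, -0.16 and -0.20, with unadjusted p-values of 0.0927, 0.427 and 0.294. The pentose phosphate enzyme Pgd, a source of the NADPH that Gsr and Txnrd1 use, was at 0.00 (95% interval -0.16 to 0.16), and its other probe sets were at 0.03 and 0.21, the latter at log2 2.06 and so below the filter.

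**Figure D2:**
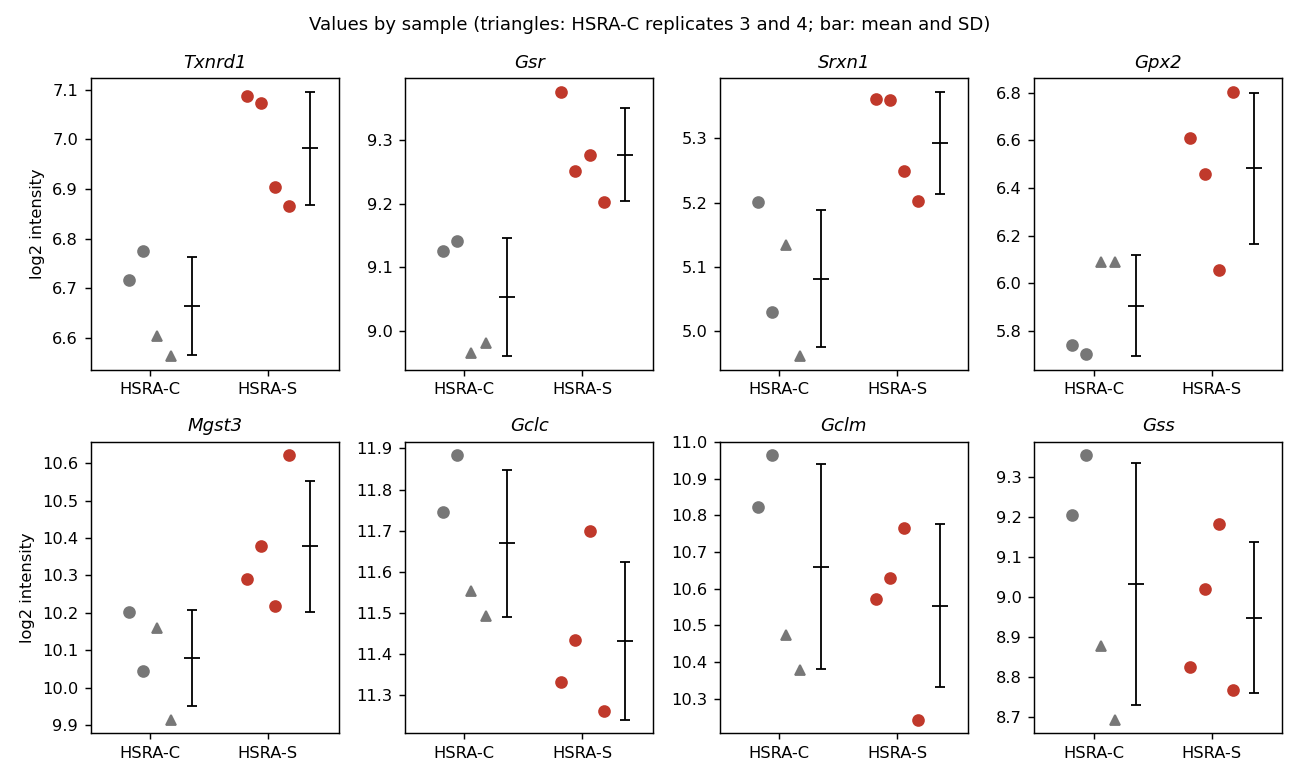
Log2 intensity of 8 genes in each sample, controls in grey and solitary kidneys in red, with HSRA-C replicates 3 and 4 as triangles and the mean and SD of each group (n = 4) as a black bar. Txnrd1, Gsr, Srxn1 and Mgst3 do not overlap between groups, Gpx2 overlaps by 1 solitary kidney, and for Gclc, Gclm and Gss HSRA-C replicates 1 and 2 lie above the other controls.

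Mgst3 led the glutathione transferases. It is a membrane-bound enzyme of the microsomal family with transferase and peroxidase activity. Its level was 10.29, 10.38, 10.22 and 10.62 in HSRA-S and 10.20, 10.04, 10.16 and 9.91 in HSRA-C. The groups did not overlap, but HSRA-S replicate 3 and HSRA-C replicate 1 were 0.02 apart after rounding. The log2 difference was 0.30 (SE 0.098), or 1.23-fold, with an adjusted p of 0.339. It was 0.26 without HSRA-C replicates 3 and 4 (unadjusted p = 0.0673) and 0.15 with the covariate (unadjusted p = 0.156).

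None of the other tested transferases had an unadjusted p under 0.05. Gsta4, which conjugates lipid aldehydes, was at 0.12, with its 2 further probe sets at 0.10 and 0.06. The microsomal Mgst1, the theta-class Gstt2, the omega-class Gsto1 and the mitochondrial and peroxisomal Gstk1 were at 0.07, 0.07, 0.01 and -0.03. Gstp1, Gstm1 and Gstm2 varied most among the 34 genes, with pooled SDs of 0.337, 0.325 and 0.281 within groups, above at least 95.3% of all tested genes. Gstp1 was 8.28, 8.58, 8.72 and 7.76 in HSRA-S and 8.24, 8.02, 8.53 and 8.33 in HSRA-C. Gstm1 was 7.003, 7.50, 7.58 and 6.63 in HSRA-S and 7.06, 7.06, 7.29 and 7.22 in HSRA-C. Gstm2 was 8.19, 8.34, 8.29 and 7.58 in HSRA-S and 8.09, 8.14, 8.38 and 8.48 in HSRA-C.

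For these 3 transferases the lowest sample was HSRA-S replicate 4, which also had the lowest mean of the collecting duct markers. With the covariate their differences went from 0.06 to 0.39 for Gstp1 (unadjusted p = 0.0417), from 0.02 to 0.31 for Gstm1 and from -0.17 to 0.16 for Gstm2. Transferases of a class are close relatives whose probes may detect each other's transcripts, which was not tested here.

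Nfe2l2 and Keap1 were among the steadiest genes of the group. Nfe2l2 ran from 8.86 to 8.998 in HSRA-S and from 8.88 to 8.96 in HSRA-C, a difference of 0.00 after rounding (95% interval -0.13 to 0.13). Keap1 was at 0.02 (-0.12 to 0.15). The arrays measure transcripts, while NRF2 is controlled largely through the stability of its protein. Among its targets, the epoxide hydrolase Ephx1 was at 0.22, and at 0.03 without HSRA-C replicates 3 and 4, which were its lowest samples at 9.53 and 9.37 against 9.78 to 9.96 in the others. Nqo1, the quinone reductase often used to read NRF2 activity, was 5.33, 5.43, 5.99 and 5.18 in HSRA-S and 5.54, 5.57, 5.66 and 5.50 in HSRA-C. Its difference was -0.08, and -0.25 without HSRA-S replicate 3, the highest sample. Hmox1, the inducible heme oxygenase, was dim, at 4.13 to 4.48 in HSRA-S and 3.99 to 4.75 in HSRA-C, a difference of -0.12.

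**Figure D3:**
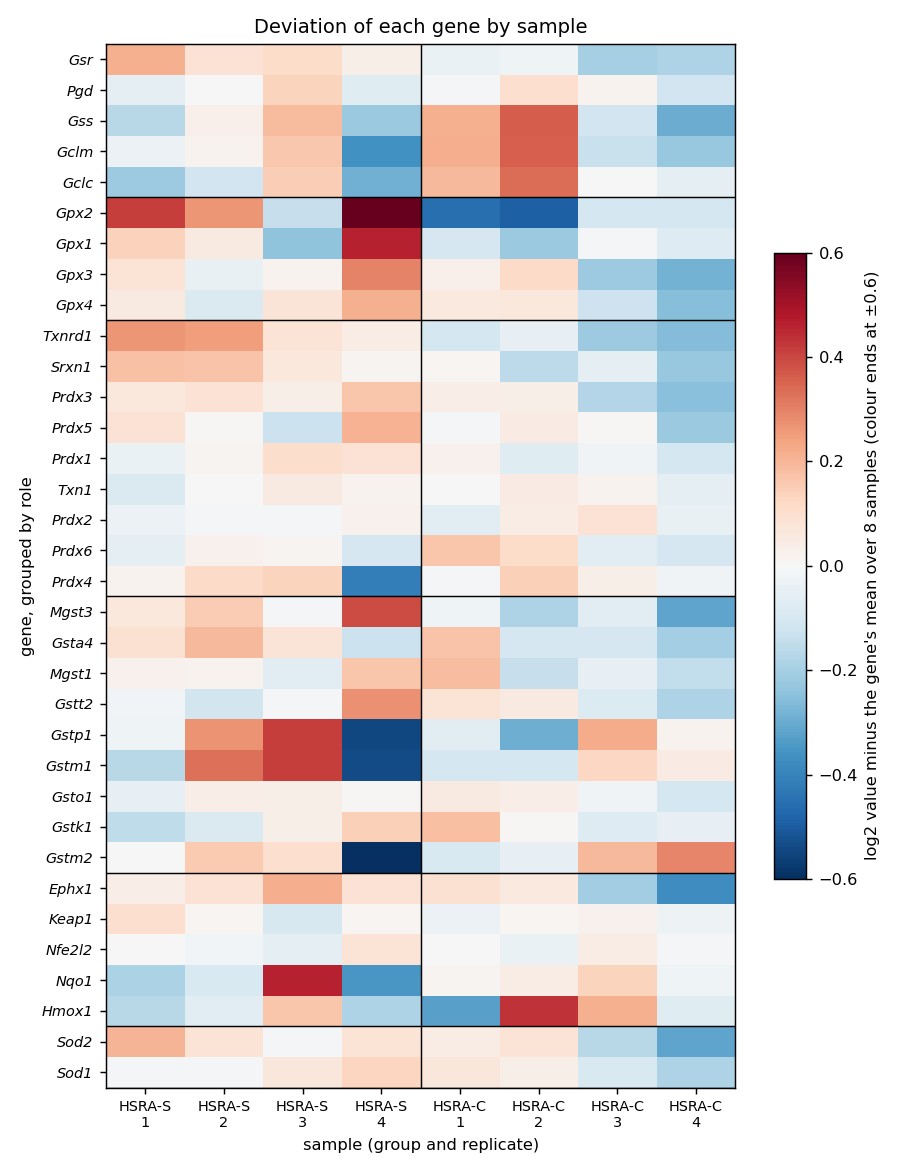
Log2 value of each tested gene minus its own mean over the 8 samples, with samples in columns and genes in rows ordered by role; red is above and blue below the gene's mean, and colours end at ±0.6. Gclc, Gclm and Gss are red in HSRA-C replicates 1 and 2, Gstp1, Gstm1 and Gstm2 are blue in HSRA-S replicate 4, and Txnrd1 and Gsr are red throughout HSRA-S.

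A further 126 genes of the same pathways were examined, of which 104 were tested. With limma 0 of them passed, with 13 higher and 2 lower at an unadjusted p under 0.05, beside 7.36% and 4.69% of all genes. Their median difference was 0.065, beside 0.015 over all genes. The list of other thioredoxin and peroxide genes held 8 of the 13, of 25 tested, with 0 lower. Of the 25, 7 were higher without overlap and 0 lower, beside 4.12% and 2.17% of all genes. These 7 are not all among the 8. They include Txnl1 at 0.12 (unadjusted p = 0.0851) and Txn2 at 0.05 (unadjusted p = 0.364), while Sephs2, Nnt and Glrx5 of the 8 overlapped. The median difference of the list was 0.12. Several of these genes are further thiol reductases.

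Glrx, a cytosolic glutaredoxin that uses glutathione to reduce mixed disulfides, was 7.78, 7.86, 7.69 and 8.11 in HSRA-S and 7.50, 7.47, 7.63 and 7.56 in HSRA-C. The log2 difference was 0.32 (SE 0.089). Txnrd3, the thioredoxin-glutathione reductase, was 5.12, 5.16, 5.35 and 5.47 in HSRA-S and 4.79, 5.01, 5.003 and 5.04 in HSRA-C, a difference of 0.32 (SE 0.093). For both genes every solitary kidney was above every control, with an adjusted p of 0.331. Without HSRA-C replicates 3 and 4 the differences were 0.37 for Glrx and 0.38 for Txnrd3, and with the covariate 0.25 and 0.30.

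Msrb1, a selenoprotein that reduces oxidised methionine, was at 0.29 (SE 0.078), and at 0.20 without those 2 samples. Sephs2, which makes the selenium donor for selenoproteins, was at 0.27 (SE 0.082), and at 0.14 without them. The remaining 4 of the 8 genes were Nnt, Glrx3, Glrx5 and Glrx2, at 0.19, 0.15, 0.16 and 0.13. Without HSRA-C replicates 3 and 4, the 8 genes at an unadjusted p under 0.05 became 2, Glrx and Txnrd3, beside 2.7% of all genes. With the covariate they became 3, which adds Msrb1, beside 5.1%. The median difference of this list was 0.037 and 0.047 in these 2 fits, against 0.0139 and 0.0241 over all genes.

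In the list of other glutathione turnover genes 2 of 21 were higher and 0 lower at an unadjusted p under 0.05, beside 7.36% and 4.69% of all genes. Without HSRA-C replicates 3 and 4 it was 1 higher and 2 lower (Cth and Ggct), beside 2.7% and 2.17%, and with the covariate 1 higher and 2 lower (Anpep and Ggt6), beside 5.1% and 2.58%. Slc3a2, the heavy chain that pairs with cystine and other amino acid transporters, was 10.42, 10.33, 10.20 and 10.41 in HSRA-S and 10.07, 10.13, 9.98 and 10.02 in HSRA-C. Its groups did not overlap, and its difference of 0.29 (SE 0.069, adjusted p = 0.331) was 0.24 without HSRA-C replicates 3 and 4 and 0.22 with the covariate. Dpep1, the brush border dipeptidase that splits cysteinylglycine, was at 0.49 (SE 0.144), and at 0.22 without those samples. The pentose phosphate enzyme Tkt was at 0.25 and Oplah, which opens the ring of oxoproline, at 0.13. Without those samples they were at 0.06 and 0.02.

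Among other transferases 0 of 14 were higher and 1 lower at an unadjusted p under 0.05, beside 7.36% and 4.69% of all genes. The 1 gene was Gstm5 at -0.39 (SE 0.133), which was -0.32 without HSRA-C replicates 3 and 4 (unadjusted p = 0.099). In that subset 0 of the 14 were higher and 1 lower, beside 2.7% and 2.17% of all genes. This was Gstt3, at -0.06 with all samples and -0.27 in the subset (unadjusted p = 0.00686, adjusted p = 0.977). With the covariate 0 were higher and 0 lower, beside 5.1% and 2.58%. Gsta1, Gstm7 and Gstm4 were at 0.33, -0.17 and -0.16, and at 0.23, -0.04 and -0.06 without HSRA-C replicates 3 and 4. Among other regulators of NRF2 1 of 14 was higher and 0 lower, beside the same shares. It was the autophagy receptor Sqstm1 at 0.24, which was 0.10 without HSRA-C replicates 3 and 4. The transcription factors Nfe2, Bach1 and Bach2 were at 0.14, 0.11 and -0.13, and at 0.20, 0.04 and 0.02 in that subset. There the sign of Bach2 turned. Nfe2 was the 1 of the 14 at an unadjusted p under 0.05 there, where 2.7% of all genes were higher. Among other NRF2 targets 2 of 30 were higher and 1 lower, beside the same 7.36% and 4.69%. This became 0 higher and 4 lower (Aldh3a1, Blvra, Blvrb and Osgin1) without HSRA-C replicates 3 and 4, beside 2.7% and 2.17% of all genes. With the covariate it was 3 higher (Abcc4, Akr1b8 and Ftl1) and 1 lower (Aldh3a1), beside 5.1% and 2.58%. Akr1b8 was at 0.25 with all samples (unadjusted p = 0.291) and 0.51 without HSRA-C replicates 3 and 4 (unadjusted p = 0.0810). It was at 0.73 with the covariate (unadjusted p = 0.000124, adjusted p = 0.571). The aldo-keto reductase Akr1b10 was at 0.64 (SE 0.237), and at 0.19 without those samples, the aldehyde dehydrogenase Aldh7a1 was at 0.22, the glycine transporter Slc6a9 at -0.29 and the transporter Abcg2 at 0.25. In the subset Aldh7a1, Slc6a9 and Abcg2 were at 0.11, -0.08 and 0.04, none with an unadjusted p under 0.05.

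**Figure D4:**
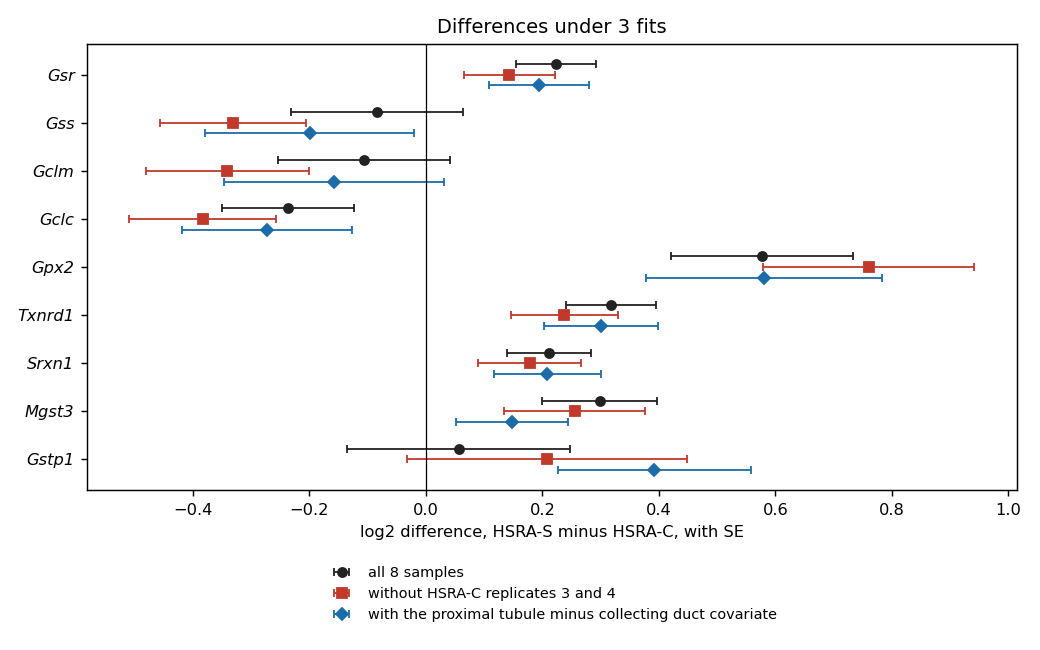
Log2 difference (HSRA-S minus HSRA-C) with SE for the 9 antioxidant genes at an unadjusted p under 0.05 in at least 1 of 3 fits: all 8 samples (black circles), without HSRA-C replicates 3 and 4 (red squares) and with the proximal tubule minus collecting duct covariate (blue diamonds). Txnrd1 lies between 0.24 and 0.32 and Gpx2 between 0.58 and 0.76 in the 3 fits, Gclc, Gclm and Gss lie furthest left without the 2 samples, and Gstp1 goes from 0.06 to 0.39.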

How the data were processed

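Whole kidneys of 4 HSRA-S and 4 HSRA-C rats were measured on 1 array each. RMA is the summary method named in the submitters' processing notes, with no software. Those deposited are intensities on a linear scale (2.12 to 9259), and their log2 was taken. Arrays correlated at 0.983 to 0.996, and no 2 were identical.

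Probe sets with exactly 1 gene symbol (18644 of 29214; 962 had several and 9608 none) gave 17245 genes, by the brightest probe set. The dimmest 20% were left out. By gene ID 18460 probe sets matched RefSeq, with 0 symbols changed. The groups were compared with limma 3.58.1 in R 4.3.3 (lmFit, eBayes), with Benjamini-Hochberg adjustment over 13796 genes. The steps were tested on simulated data. Differences are HSRA-S minus HSRA-C, with 95% intervals of the fit.

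The genes and lists were chosen with earlier results of these data known. All 38 genes are accounted for, those at an unadjusted p under 0.05 by sample. The others given by sample (Gclc, Gclm, Gss, Gpx1, Prdx3, Sod2, Nqo1 and 3 transferases) were chosen after their values were seen, as were pathway genes given by sample. Each pathway list gives its 4 genes of smallest p and all at an unadjusted p under 0.05. No genome build comes with the values, so coordinates are given for RefSeq sequences alone. Alternatives were another filter, probe set rule, pseudocount, scaling, moderation or array weights, a replicate block, the covariate, and leaving out samples.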

Additional observations from a re-analysis of the deposited data

How the results depend on the processing

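The number of arrays limits the precision, and Hmox1 lay nearest to the filter among the tested genes. None of the 34 genes passed after adjustment in any of the 20 alternatives (0 in each). Txnrd1 and Gpx2 kept their direction and an unadjusted p under 0.05 in all 20, Gsr in 19, Mgst3 in 18 and Srxn1 in 18 of 19. Of all genes, 1 passed after adjustment with the dimmest 50% left out, 1 with log2(value + 16), 1 with eBayes trend and robust and 1 with array weights, against 0. The genes higher at an unadjusted p under 0.05 were 2 without HSRA-C replicates 3 and 4 (2.7% of all genes), and 5 to 9 when a single sample was left out (4.52% to 8.58%, with 9 and 8.58% without HSRA-C replicate 2). The genes lower were 3 without those 2 samples (2.17%), 1 with quantile normalization (5.38%) and 0 to 2 when a single sample was left out (2.52% to 6.29%, with Gclc and Nqo1 and 5.04% without HSRA-S replicate 3). Genes without overlap were 5 on the lower side without those 2 samples (5.47%). When a single sample was left out they were 4 to 7 on the higher and 0 to 2 on the lower side, with 7 (6.89% of all genes) and 2 (4.36%) without HSRA-S replicate 3. The shares of all genes over these omissions were 5.11% to 8.27% and 2.66% to 5.33%. Counts without overlap do not apply to array weights, the block or the covariate.

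The replicate numbers are shared by the groups, but the deviations of same-numbered samples correlated above 0.1, the limit set for pairing, in 1 of 4 pairs (-0.07, 0.07, 0.13 and -0.11), so the numbers were not taken as pairs. With the replicate block the same 5 genes were higher at an unadjusted p under 0.05 and 0 passed.

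The following differences, none with an unadjusted p under 0.05 where the sign turned, changed sign. With each array centred on its median Nfe2l2 was at 0.0055. With quantile normalization Gsto1 was at -0.0059 and Pgd at -0.018. With array weights Gss was at 0.014. Without HSRA-C replicates 3 and 4 Gsto1 was at -0.040, Gstt2 at -0.035, Nfe2l2 at 0.019, Pgd at -0.045, Prdx2 at 0.0040 and Sod1 at -0.0079. With the covariate Gpx3 was at -0.028, Gpx4 at -0.027, Gstm2 at 0.16, Gsto1 at -0.032, Gstt2 at -0.11, Mgst1 at -0.043, Nqo1 at 0.055, Pgd at -0.0021, Prdx4 at 0.058, Prdx5 at -0.035 and Sod1 at -0.024. When a single sample was left out, Gss ran from -0.20 to 0.024, Gstk1 from -0.082 to 0.026, Gstm1 from -0.11 to 0.20, Gstm2 from -0.25 to 0.0001779, Gsto1 from -0.018 to 0.035, Gstp1 from -0.073 to 0.25, Gstt2 from -0.013 to 0.11, Hmox1 from -0.25 to 0.0001047, Keap1 from -0.016 to 0.049, Nfe2l2 from -0.027 to 0.020, Nqo1 from -0.25 to 0.017, Pgd from -0.041 to 0.036, Prdx2 from -0.035 to 0.016, Prdx4 from -0.13 to 0.051 and Txn1 from -0.030 to 0.019. The cause was not tested.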
